A study of Mus musculus with 6 samples.

Results

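The T cell receptor alpha variable segments (Trav) were taken as all genes of the deposited count tables whose mouse GRCm38 symbol starts with Trav, which gave 128 of 55573 listed genes. They fell into 23 subfamilies by the number after Trav, and into 55 original copies with no letter after that number, 39 copies marked d and 34 copies marked n. GENCODE M21 annotates 108 of them as genes and 20 as pseudogenes. All 128 lie on the plus strand of chromosome 14, from Trav1 at chr14:52427928-52428876 to Trav23 at chr14:53977153-53977678 (GRCm38).

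The study compared regulatory T cells (Tregs), which are CD4 T cells that hold other immune cells in check, with and without Nfkb2, the gene of the NF-kB precursor protein p100. The Tregs were labelled Nfkb2-/- or wild type, and both kinds were sorted from the spleen of chimeras made with bi-parental bone marrow, that is, mice whose blood cells derive from transplanted donor marrow. They were rested in medium, and RNA was sequenced in 3 libraries of each genotype that the labels call biological repeats. The labels used here give no donor sex, strain or age, name no agent, and do not say how many mice a library held or which host cells remained. They also do not say whether Nfkb2-/- and wild-type Tregs of the same replicate number came from the same mice. The main tests take the libraries as unpaired, and fits with the replicate number as a block are given as an alternative. Values of a genotype's 3 libraries are given below in the order of replicates 1, 2 and 3.

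Each alpha chain of a T cell receptor is assembled in the thymus by joining 1 variable segment to a joining segment (Traj), which is then spliced to the constant gene Trac. The Rag enzymes cut the DNA, and Dntt adds bases at the joint. A Trav segment therefore appears in messenger RNA mostly where a T cell has rearranged it, and a sample of many T cells shows how often each segment is in use. Segments that lie near the joining segments are joined in early rearrangements, and those far away after repeated ones. In the reference genome a central part of the locus is repeated, and the letters d and n in a symbol mark the repeated copies. A suffix with dv marks a segment that can also be joined in the T cell receptor delta locus, which lies within the alpha locus. The invariant receptors of mouse NKT cells use Trav11, and those of MAIT cells use Trav1.

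The copies of a segment are nearly identical, which limits how well short reads can be told apart, so the variable exons of the 2 sets of original, d and n copies with the most counts are shown. The sequences were taken from the GENCODE M21 transcripts (GRCm38), are written 5′ to 3′, and have in capitals each base at which the 3 copies of a set differ. The first set has a whole exon of 292 bases at chr14:53461447-53461738 for Trav7-4, chr14:52770101-52770392 for Trav7d-4 and chr14:53091584-53091875 for Trav7n-4, plus strand.
Trav7-4: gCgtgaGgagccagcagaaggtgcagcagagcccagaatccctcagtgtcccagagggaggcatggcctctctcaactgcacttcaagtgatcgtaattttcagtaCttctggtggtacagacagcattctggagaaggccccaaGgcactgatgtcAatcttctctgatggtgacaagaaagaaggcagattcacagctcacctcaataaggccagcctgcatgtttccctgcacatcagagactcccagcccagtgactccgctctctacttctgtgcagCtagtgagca
Trav7d-4: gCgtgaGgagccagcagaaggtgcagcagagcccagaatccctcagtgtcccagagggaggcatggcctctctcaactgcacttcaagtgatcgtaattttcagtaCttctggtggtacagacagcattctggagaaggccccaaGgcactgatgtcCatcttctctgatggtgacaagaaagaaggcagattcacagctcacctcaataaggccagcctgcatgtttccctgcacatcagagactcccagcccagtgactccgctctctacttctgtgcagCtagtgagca
Trav7n-4: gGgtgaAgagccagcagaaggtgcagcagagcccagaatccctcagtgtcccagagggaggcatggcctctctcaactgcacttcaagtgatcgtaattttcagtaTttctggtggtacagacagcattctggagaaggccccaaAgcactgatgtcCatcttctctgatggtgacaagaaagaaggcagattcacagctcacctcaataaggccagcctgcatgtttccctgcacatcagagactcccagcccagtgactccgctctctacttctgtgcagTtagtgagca
Within this set Trav7-4 differed from Trav7d-4 at 1 base and from Trav7n-4 at 6 bases, and Trav7d-4 differed from Trav7n-4 at 5 bases.

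The second set is shown over the last 300 of 309 exon bases, at chr14:53763395-53763694 for Trav14-3, chr14:53078746-53079045 for Trav14d-3-dv8 and chr14:53370276-53370575 for Trav14n-3, plus strand.
Trav14-3: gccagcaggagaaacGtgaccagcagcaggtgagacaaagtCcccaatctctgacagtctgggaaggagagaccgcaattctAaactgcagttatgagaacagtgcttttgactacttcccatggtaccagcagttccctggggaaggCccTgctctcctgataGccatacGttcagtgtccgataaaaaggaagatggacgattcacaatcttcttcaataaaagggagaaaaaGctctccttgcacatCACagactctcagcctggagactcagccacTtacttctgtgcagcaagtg
Trav14d-3-dv8: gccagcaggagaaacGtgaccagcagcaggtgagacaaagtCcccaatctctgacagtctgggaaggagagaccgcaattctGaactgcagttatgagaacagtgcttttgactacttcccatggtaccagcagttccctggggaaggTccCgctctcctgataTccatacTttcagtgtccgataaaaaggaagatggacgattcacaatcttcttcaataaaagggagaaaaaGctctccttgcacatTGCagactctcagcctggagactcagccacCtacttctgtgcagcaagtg
Trav14n-3: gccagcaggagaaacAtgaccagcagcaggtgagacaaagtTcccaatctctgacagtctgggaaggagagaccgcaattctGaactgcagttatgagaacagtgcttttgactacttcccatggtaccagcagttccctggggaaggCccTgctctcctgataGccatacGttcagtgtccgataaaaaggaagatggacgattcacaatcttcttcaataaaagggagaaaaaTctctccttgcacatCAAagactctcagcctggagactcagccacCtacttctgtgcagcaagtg
Over these bases Trav14-3 differed from Trav14d-3-dv8 at 8 bases and from Trav14n-3 at 6 bases, and Trav14d-3-dv8 differed from Trav14n-3 at 10 bases. How reads that match more than 1 copy were counted is not stated in the sources used here, so the split of counts between such copies is uncertain throughout.

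The libraries held 12005273, 14359439 and 12763638 counts in Nfkb2-/- and 17278521, 12535383 and 12499343 counts in wild type. Nfkb2 itself was at 268.5, 324 and 271 CPM in Nfkb2-/- and 558, 545 and 556 CPM in wild type, lower but not absent in the libraries labelled Nfkb2-/-, and counts per gene do not show which exons the reads came from. The 7 T cell and Treg markers were present in all libraries, with Foxp3, the transcription factor that defines Tregs, at 525 ± 67.4 CPM in Nfkb2-/- Tregs, against 505 ± 109 CPM in wild-type Tregs (± SD, 3 libraries each; CPM, counts scaled to the size of a library with TMM). Xist, the transcript that silences an X chromosome in female cells, was at 841, 883 and 592 CPM in Nfkb2-/- and at 1.94, 3.17 and 16.5 CPM in wild type, and 4 Y-linked genes summed to 40.1, 138 and 275 CPM in Nfkb2-/- and to 465, 498 and 477 CPM in wild type. Each Nfkb2-/- library thus held both Xist and Y-linked RNA, the latter in varying amounts, and neither level overlapped between genotypes. Sex and genotype can therefore not be told apart in any comparison here. The summed level of the 8 B cell markers was 28.4, 37.7 and 49.4 CPM in Nfkb2-/- and 75.8, 231 and 160 CPM in wild type, and Cd79a, a part of the B cell receptor, was called lower in Nfkb2-/-. The part of these differences in the Trav results was not tested.

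Trav segments as a class were sparsely counted, and their summed level in each Nfkb2-/- library lay above that of all wild-type libraries. They held 862, 960 and 896 counts in Nfkb2-/- and 636, 608 and 775 counts in wild type, between 0.0037% and 0.0072% of a library's counts. The summed level was 71.3, 67.6 and 73.0 CPM in Nfkb2-/- and 34.3, 48.1 and 65.1 CPM in wild type, so that wild-type replicate 3 came close to the lowest Nfkb2-/- library. The log2 difference was 0.57, with a two-sided exact permutation p of 0.1, the smallest that 3 against 3 libraries allow. In such bulk samples, fewer cells of a type and less RNA per cell cannot be told apart. These counts over 128 segments leave most single segments with few reads: 35 segments had no count in any library, and 88 did not pass the filter on low counts, 53 of them with some counts.

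More segments had counts in Nfkb2-/- Tregs than in wild type. Counts were on 75, 77 and 75 segments in Nfkb2-/- and on 34, 35 and 68 segments in wild type. The effective number of segments, the inverse Simpson index of their shares, was 40.9, 44.9 and 40.7 in Nfkb2-/- and 17.5, 17.7 and 24.2 in wild type. It differed by 22.4 between the genotype means without overlap (exact permutation p = 0.1, the smallest possible). Wild-type replicate 3 was thus close to Nfkb2-/- in how many segments had a count, but its effective number was nearer to those of the other wild-type libraries. This index depends both on how many segments had a count and on how evenly they were used, so it is no measure of evenness alone.

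The genotypes drew their Trav counts from different parts of the locus. In chromosomal order the locus holds 8 original copies, then all d copies, then all n copies, then 47 original copies up to Trac. The 8 original copies at the far end held 4.29%, 6.15% and 6.47% of Trav counts in Nfkb2-/- and 40.7%, 38.2% and 30.5% in wild type. The d copies held 10.4%, 11.5% and 10.3% in Nfkb2-/- and 40.7%, 42.8% and 37.9% in wild type. The far original copies and the d copies were together the minor part in Nfkb2-/- and the major part in wild type.

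The n copies held 10.9%, 14.5% and 15.1% of Trav counts in Nfkb2-/- and 0.472%, 1.32% and 3.36% in wild type. The 47 original copies nearest Trac held 74.4%, 67.9% and 68.2% in Nfkb2-/- and 18.1%, 17.8% and 28.3% in wild type. Neither of these shares overlapped between the genotypes, nor did those of the far original copies and the d copies, each with an exact permutation p of 0.1, the smallest possible. The split of the original copies into far and near was added after seeing the data. For those groups the p is therefore a description and no test. All original copies as 1 class, near and far, held 75.8% ± 2.50 in Nfkb2-/- and 57.8% ± 1.64 in wild type (± SD, 3 libraries each), a difference of 18.0 percentage points that hides the opposite differences of its near and far members.

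**Figure D1:**
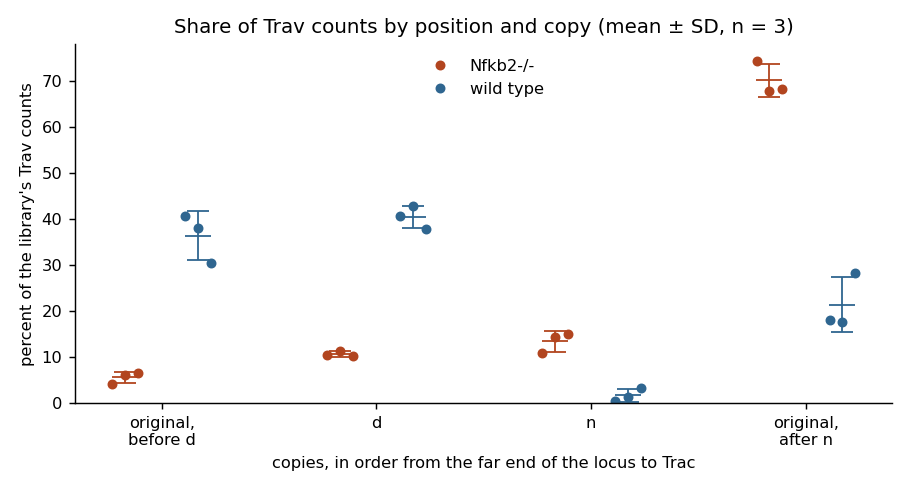
Percent of each library's Trav counts (vertical axis) in 4 groups of segments ordered along the locus, with 1 point per library and bars for the mean ± SD of 3 libraries, Nfkb2-/- left of wild type. The far original and d copies are lower in all 3 Nfkb2-/- libraries (means 5.64% and 10.7%) than in wild type (36.4% and 40.5%), and the n copies and near original copies are higher (13.5% and 70.2%, against 1.71% and 21.4%). The original copies were split by position after the data were seen.

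The same split was seen on the CPM scale, which does not force the groups to add up to a fixed total. The far original copies summed to 3.98 ± 0.844 CPM in Nfkb2-/- Tregs, against 17.4 ± 3.05 CPM in wild-type Tregs, a log2 difference of -2.13. The d copies summed to 7.56 ± 0.160 CPM in Nfkb2-/- Tregs, against 19.7 ± 5.41 CPM in wild-type Tregs, a log2 difference of -1.35. Both sums were thus lower in every Nfkb2-/- library. The d copies were not uniform, however: those from Trav8d-2 on, next to the n copies, had more counts in Nfkb2-/- where they had any. Trav14d-3-dv8, for one, had 24, 26 and 28 counts in Nfkb2-/- and 0, 0 and 3 in wild type. The n copies summed to 9.52 ± 1.62 CPM in Nfkb2-/- Tregs, against 0.993 ± 1.06 CPM in wild-type Tregs, a log2 difference of 3.96, and the near original copies to 49.6 ± 3.58 CPM in Nfkb2-/- Tregs, against 11.1 ± 6.47 CPM in wild-type Tregs, a log2 difference of 2.32 (± SD, 3 libraries each). None of the 4 sums overlapped between genotypes, again at an exact permutation p of 0.1, the smallest possible. For the far and near original copies, split after the data were seen, this p is likewise no test.

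The segments with few wild-type counts lay next to each other. From Trav8d-2, 1177.6 kb before Trac, to Trav6-7-dv9, 510.1 kb before Trac, 70 consecutive segments held 658, 727 and 678 counts in Nfkb2-/- and 13, 12 and 103 counts in wild type. The ends of this stretch were chosen after its values were seen, so it is a description with no test. It held 76.3%, 75.7% and 75.7% of Trav counts in Nfkb2-/- and 2.04%, 1.97% and 13.3% in wild type. Of its 70 segments, 16 had no count in any library and 35 had none in any wild-type library.

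In this stretch wild-type replicate 3 differed from replicates 1 and 2. Its 8.65 CPM there were 16.1% of the Nfkb2-/- mean, against 0.701 and 0.9495 CPM in wild-type replicates 1 and 2, and 34 of the segments had a count in it, against 6 and 7. The same library had the highest Xist level of wild type, 16.5 CPM, and the part of this in its Trav counts was not tested. Without it, the n copies differed by 4.88 and the near original copies by 2.77 on the log2 scale, against 3.96 and 2.32 with it. Without wild-type replicate 1 they differed by 3.003 and 1.98.

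On both sides of the stretch, though on the far side only beyond a run of 24 hardly counted segments, wild-type counts were present. The 18 segments before Trav6d-6 held 89, 128 and 96 counts in Nfkb2-/- and 511, 481 and 507 in wild type. The 16 segments after Trav6-7-dv9, nearest Trac, held 113, 101 and 116 counts in Nfkb2-/- and 105, 104 and 146 in wild type. The levels of the segments nearest Trac overlapped between genotypes, at 8.64 ± 1.32 CPM in Nfkb2-/- Tregs, against 8.72 ± 3.33 CPM in wild-type Tregs (± SD, 3 libraries each). The 24 segments from Trav6d-6 to Trav13d-3 had hardly any counts in either genotype, 2, 4 and 6 in Nfkb2-/- and 7, 11 and 19 in wild type, and 17 of them had none at all. A median of 0% of the 50-base windows of their exons was found in no other Trav segment. Their few counts therefore do not show that they were not used, nor where within them wild-type counts would stop.

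**Figure D2:**
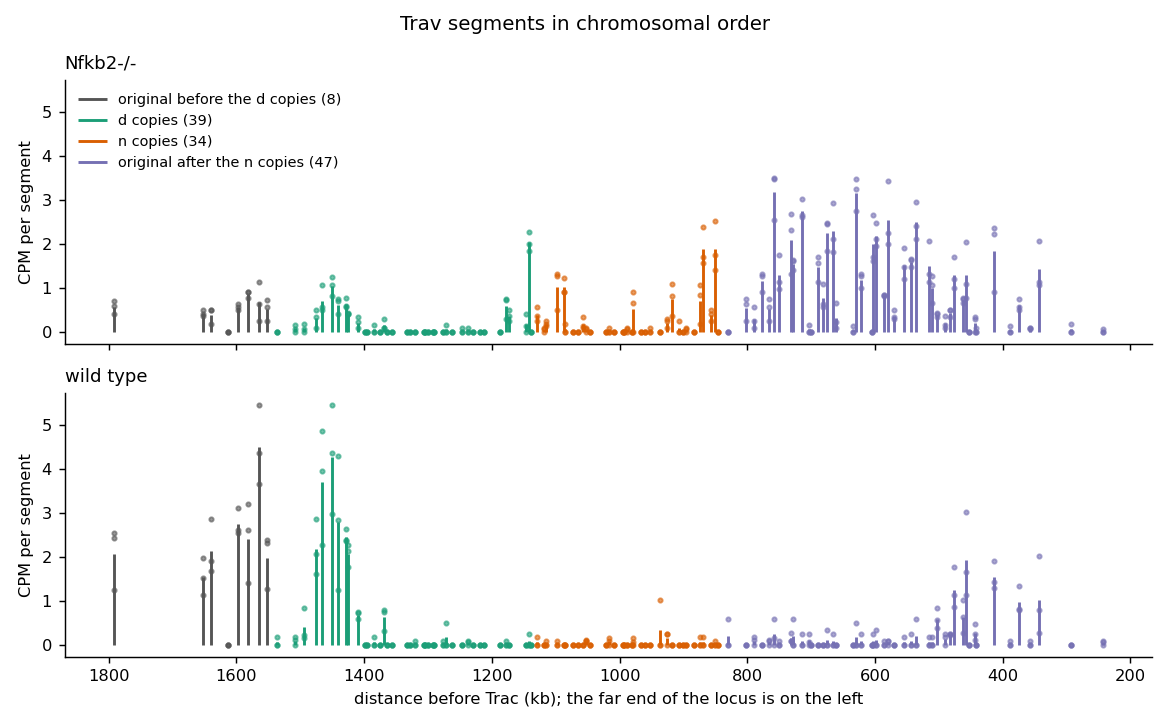
Mean CPM (lines) and the CPM of each of 3 libraries (points) of every Trav segment against its distance before Trac in kb, with Nfkb2-/- above wild type. From 1177.6 to 510.1 kb before Trac, Nfkb2-/- libraries hold 54.5, 51.2 and 55.2 CPM in all and wild-type libraries 0.701, 0.9495 and 8.65 CPM.

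Of the 40 segments that passed the filter, 14 rose and 5 fell in Nfkb2-/- Tregs (quasi-likelihood test of edgeR, with p under 0.05 after Benjamini-Hochberg adjustment over 13347 genes). Among all genes tested, 1.01% were called higher and 0.405% lower by the same rule. Segments counted in a single genotype can pass the filter through that genotype alone, so the number of calls among those tested is no measure of how often segments differ. All 14 that rose lie in the stretch from Trav8d-2 to Trav6-7-dv9, and all 5 that fell lie before Trav6d-6, limits that were chosen after the values were seen. By position, the 14 were 10 near original copies, 3 n copies and 1 d copy, and the 5 were 2 far original copies and 3 d copies.

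The calls depended on single libraries. With edgeR, 0 segments were called higher without Nfkb2-/- replicate 1, 2 or 3 (26, 22 and 23 at an unadjusted p under 0.05), 24 when wild-type replicate 1 was left out and 1 without wild-type replicate 2. When wild-type replicate 3 was left out 12 were called higher, 6 of them among the 14. Likewise, 0 were called lower when any single library other than wild-type replicate 1 was left out (13 each at an unadjusted p under 0.05), and 13 without that library. With the replicate number as a block, 8 of the 14 remained called higher and 3 of the 5 lower, beside 2 others called lower. The 14 and the 5 had the same sign in each of these fits. Nearly all of the 14 had few or no wild-type counts, so their sign could hardly change and is no support.

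Among the 14 segments that rose, the 3 with no wild-type count at all included original and n copies. Trav7-5 had 19, 16 and 21 counts in Nfkb2-/- and 0 in each wild-type library, at least 20.9-fold higher if the group is given a floor of 3 counts in all (adjusted p = 0.0219). Trav7-3 had 16, 18 and 11 counts in Nfkb2-/- and 0 in each wild-type library, at least 16.8-fold higher (adjusted p = 0.0254). Trav6n-6 had 11, 13 and 15 counts in Nfkb2-/- and 0 in each wild-type library, at least 14.5-fold higher (adjusted p = 0.0274). These are segments of subfamilies Trav7 and Trav6, in which other members were well counted in wild type.

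Subfamily Trav14 gave 4 of the 14 segments that rose, spread over original, d and n copies. Trav14-2, the call with the smallest adjusted p, had 24, 32 and 42 counts in Nfkb2-/- and 0, 1 and 1 in wild type, a ratio of 54.7 (exact 95% interval 14.8 to 458, covering counting error only; adjusted p = 0.0125). Trav14n-3 had 21, 20 and 31 counts in Nfkb2-/- and 0, 0 and 1 in wild type, a ratio of 80.4 (interval 13.98 to 3220; adjusted p = 0.0157). Neither had more than 2 counts over the wild-type libraries together. Trav14d-3-dv8 had 24, 26 and 28 counts in Nfkb2-/- and 0, 0 and 3 in wild type, and Trav14-1 had 22, 30 and 36 counts in Nfkb2-/- and 0, 0 and 3 in wild type (adjusted p = 0.0396 and 0.0366). In these the few wild-type counts came from replicate 3.

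Of the others that rose, the segments Trav9-1 and Trav10 had the most counts. Trav9-1 had 28, 38 and 16 counts in Nfkb2-/- and 5, 1 and 1 in wild type, with a fitted log2 fold change of 3.66 (SE 0.563, adjusted p = 0.0262). The segment Trav10 had 32, 37 and 37 counts in Nfkb2-/- and 0, 0 and 3 in wild type, a ratio of 39.5 (interval 13.1 to 194; adjusted p = 0.0268). Of the 14, Trav9-1 alone had counts in every wild-type library. Trav16n, the n copy of the Trav16 subfamily, had 19, 34 and 21 counts in Nfkb2-/- and 0, 0 and 2 in wild type (adjusted p = 0.0271).

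The remaining 4 that rose were original copies after the n copies, within the stretch, from 750.3 to 516.0 kb before Trac. Trav8-1 had 21, 16 and 12 counts in Nfkb2-/- and 0, 0 and 1 in wild type (adjusted p = 0.0250). Trav3-3 had 23, 17 and 18 counts in Nfkb2-/- and 0, 0 and 2 in wild type (adjusted p = 0.0358), and Trav5-4 had 25, 16 and 16 counts in Nfkb2-/- and 0, 0 and 2 in wild type (adjusted p = 0.0423). Trav12-2 had 32, 23 and 21 counts in Nfkb2-/- and 0, 0 and 3 in wild type (adjusted p = 0.0478). In all 4, every wild-type count was in replicate 3, and the genotypes did not overlap.

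The 5 segments that fell were counted in every library of both genotypes. Trav7-1, a far original copy, had 3, 9 and 14 counts in Nfkb2-/- and 68, 55 and 65 in wild type, a log2 fold change of -2.72 (SE 0.480, adjusted p = 0.0423). Trav5-1, also a far original copy, had 6, 9 and 7 counts in Nfkb2-/- and 47, 33 and 37 in wild type, a log2 fold change of -2.25 (SE 0.330, adjusted p = 0.0230). The lowest wild-type library was well above the highest Nfkb2-/- library in both.

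The other three that fell were d copies near the far end. Trav7d-4 had 15, 15 and 10 counts in Nfkb2-/- and 55, 69 and 52 in wild type, a log2 fold change of -2.02 (SE 0.357, adjusted p = 0.0408). Trav9d-1 had 7, 11 and 7 counts in Nfkb2-/- and 49, 30 and 28 in wild type, a log2 fold change of -1.92 (SE 0.329, adjusted p = 0.0358), and Trav6d-5 had 5, 6 and 5 counts in Nfkb2-/- and 33, 27 and 27 in wild type, a log2 fold change of -2.28 (SE 0.350, adjusted p = 0.0254). None of these overlapped between genotypes.

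Over all 128 segments, 38 were higher and 16 lower in Nfkb2-/- without overlap. Among all genes tested 10.7% and 9.9% did not overlap in these directions, a share that is not on the same footing, since 88 of the 128 segments were not tested. Of the 40 that were, many passed the filter through counts of 1 genotype, which fixed their direction, so nothing is read from how many of them differed. The segments tested and not called included Trav7-4, with 42, 36 and 43 counts in Nfkb2-/- and 0, 2 and 7 in wild type (adjusted p = 0.0651).

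Trav1, the MAIT segment and the farthest from Trac, was not called. It had 7, 10 and 5 counts in Nfkb2-/- and 23, 32 and 29 in wild type, or 0.563 ± 0.149 CPM in Nfkb2-/- Tregs, against 2.07 ± 0.720 CPM in wild-type Tregs (± SD, 3 libraries each; log2 fold change -1.84, SE 0.437, adjusted p = 0.102). The genotypes did not overlap. Of the NKT segments, Trav11 and Trav11d had no count in any library and the pseudogene Trav11n had 2 counts, both in Nfkb2-/- replicate 1. Trav11 and Trav11d share 99.66% of exon bases and have no stretch of 50 bases of their own, so a count of 0 does not show that they were not used. The NKT marker Zbtb16, which drives the development of these cells, was at 2.11 ± 1.29 CPM in Nfkb2-/- Tregs, against 2.64 ± 2.31 CPM in wild-type Tregs (± SD, 3 libraries each) and was not called.

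Summed over copies, 17 of the 23 subfamilies passed the filter and 3 rose, while 0 were called lower (3 at an unadjusted p under 0.05, and 1 with DESeq2 and 0 with limma-voom). In this table, with subfamily sums in place of segments, 0.863% of all 13324 rows were called higher and 0.293% lower. Subfamily Trav12 had 76, 75 and 60 counts in Nfkb2-/- and 1, 2 and 7 in wild type, or 5.48 ± 0.723 CPM in Nfkb2-/- Tregs, against 0.267 ± 0.283 CPM in wild-type Tregs (log2 fold change 4.45, SE 0.603, adjusted p = 0.0187). Wild type had 10 counts of it over 3 libraries.

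Subfamily Trav10 had 42, 58 and 54 counts in Nfkb2-/- and 14, 9 and 11 in wild type, or 3.99 ± 0.469 CPM in Nfkb2-/- Tregs, against 0.797 ± 0.112 CPM in wild-type Tregs (log2 fold change 2.32, SE 0.306, adjusted p = 0.0159). Subfamily Trav9 had 101, 115 and 87 counts in Nfkb2-/- and 55, 37 and 42 in wild type, or 7.85 ± 0.672 CPM in Nfkb2-/- Tregs, against 3.14 ± 0.336 CPM in wild-type Tregs (± SD, 3 libraries each; log2 fold change 1.32, SE 0.224, adjusted p = 0.0372). Both were well counted in wild type as well, but on another copy: d copies held 6.93%, 9.57% and 9.20% of Trav9 counts in Nfkb2-/- and 90.9%, 83.8% and 66.7% in wild type. These 3 calls were lost with edgeR when any single Nfkb2-/- library, or wild-type replicate 2, was left out (7 subfamilies higher at an unadjusted p under 0.05 each time), and 7 subfamilies were called higher without wild-type replicate 1. When wild-type replicate 3 was left out 3 were called higher, 1 of them among these 3. The Trav9 call was also lost with the replicate block (adjusted p = 0.0521), and with library sizes taken as summed Trav counts Trav9 had a log2 fold change of 0.73 (adjusted p = 0.154) and Trav10 of 1.73 (adjusted p = 0.0819).

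Among the 8 subfamilies with the largest mean share of Trav counts, 7 were not called. Subfamily Trav7, which had the largest share averaged over all 6 libraries but fewer counts than Trav14 in Nfkb2-/-, had 108, 113 and 113 counts in Nfkb2-/- and 160, 159 and 181 in wild type, and its levels overlapped between genotypes at 8.70 ± 0.657 CPM in Nfkb2-/- Tregs, against 12.1 ± 3.31 CPM in wild-type Tregs (± SD, 3 libraries each; log2 fold change -0.48, adjusted p = 0.455). Its copies differed more than its sum, since d copies held 17.6%, 19.5% and 11.5% of its counts in Nfkb2-/- and 53.1%, 59.8% and 49.7% in wild type. Subfamily Trav6 had 75, 113 and 91 counts in Nfkb2-/- and 153, 142 and 164 in wild type (log2 fold change -0.62, adjusted p = 0.320), with 17.3%, 19.5% and 13.2% of them on d copies in Nfkb2-/- and 51.6%, 55.6% and 57.9% in wild type. The sum over a subfamily thus joined segments that went opposite ways.

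Subfamily Trav14 had 104, 120 and 165 counts in Nfkb2-/- and 23, 23 and 51 in wild type (log2 fold change 2.08, SE 0.459, adjusted p = 0.0890), and subfamily Trav13 had 57, 69 and 63 counts in Nfkb2-/- and 11, 21 and 29 in wild type (log2 fold change 1.68, adjusted p = 0.155). Neither overlapped between genotypes, and neither was called. Subfamily Trav8 had 45, 49 and 45 counts in Nfkb2-/- and 27, 39 and 58 in wild type, Trav5 had 34, 25 and 23 in Nfkb2-/- and 47, 33 and 39 in wild type, and Trav3 had 30, 30 and 24 in Nfkb2-/- and 33, 30 and 51 in wild type. The CPM of these 3 overlapped between genotypes. Subfamily Trav15, not tested, had 15, 7 and 5 counts in Nfkb2-/- and none in wild type, at least 10.1-fold higher with the same floor of 3 counts in all.

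**Figure D3:**
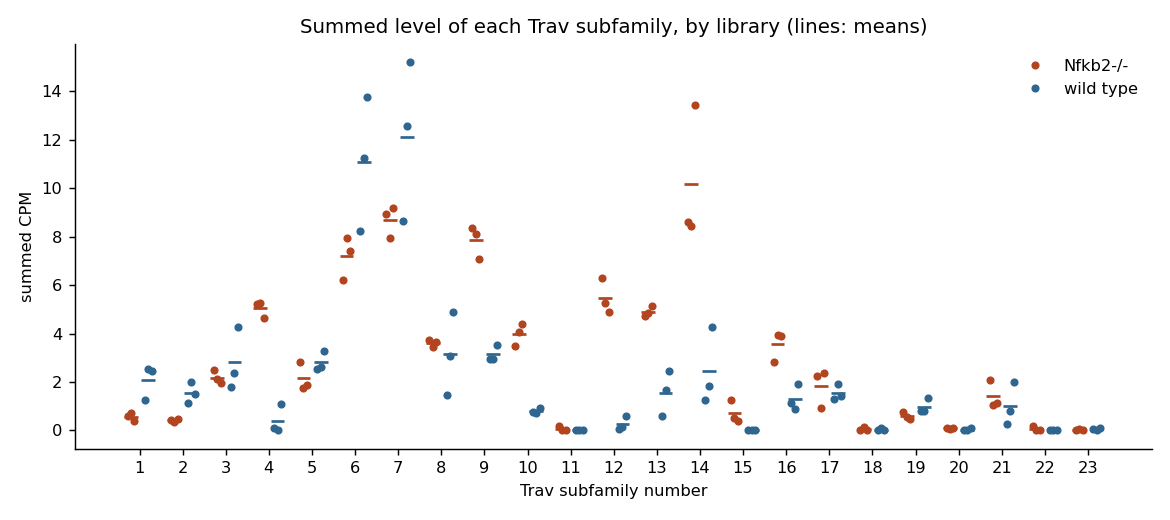
Summed CPM of each of the 23 Trav subfamilies, with 1 point per library and a line at the mean of 3 libraries, Nfkb2-/- left of wild type. Subfamily Trav12 stands at 5.48 CPM in Nfkb2-/- Tregs, against 0.267 CPM in wild-type Tregs, while Trav7, at 8.70 CPM in Nfkb2-/- Tregs, against 12.1 CPM in wild-type Tregs, overlaps.

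In the 6 sets of near-identical copies with the most counts, the copies took different shares of the counts in the genotypes. In the set shown above with the most counts, Trav7-4 held 70.0%, 64.3% and 71.7% of the set's counts in Nfkb2-/- and 0%, 2.82% and 11.5% in wild type, where Trav7d-4 held 100%, 97.2% and 85.3%. The set had about as many counts in both genotypes, 60, 56 and 60 in Nfkb2-/- and 55, 71 and 61 in wild type. The copy with the most counts was Trav7-4 in each Nfkb2-/- library and Trav7d-4 in each wild-type library.

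In the Trav14-3 set it was the original copy that held most wild-type counts. Trav14-3 itself lies after Trav6-7-dv9 and held 22.4%, 19.3% and 29.8% of the set's counts in Nfkb2-/- and 100%, 100% and 90.0% in wild type. Its own counts overlapped, at 13, 11 and 25 in Nfkb2-/- and 21, 21 and 36 in wild type (log2 fold change -0.57, adjusted p = 0.710), whereas its d and n copies lie within the stretch described above and rose. The Trav16 set had the same form, with Trav16 at 35.3%, 30.4% and 43.8% of the set in Nfkb2-/- and 100%, 100% and 91.3% in wild type. In the Trav9-1, Trav10 and Trav6-5 sets, whose d copies lie before the stretch, the d copy was again the one with most wild-type counts. Trav9d-1 held 20.0%, 22.0% and 29.2% of its set in Nfkb2-/- and 90.7%, 96.8% and 96.6% in wild type, and Trav10d held 9.52%, 5.17% and 1.85% in Nfkb2-/- and 100%, 100% and 63.6% in wild type. In other sets the same copy led in both genotypes: Trav13-4-dv7 held 64.3%, 55.0% and 50.0% of its set in Nfkb2-/- and 100% in each wild-type library, and the original copy Trav12-2 had all counts of its set. In wild-type replicate 3 the n and original copies of the Trav10 and Trav6-5 sets also had counts, whereas in wild-type replicates 1 and 2 the d copy alone did.

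**Figure D4:**
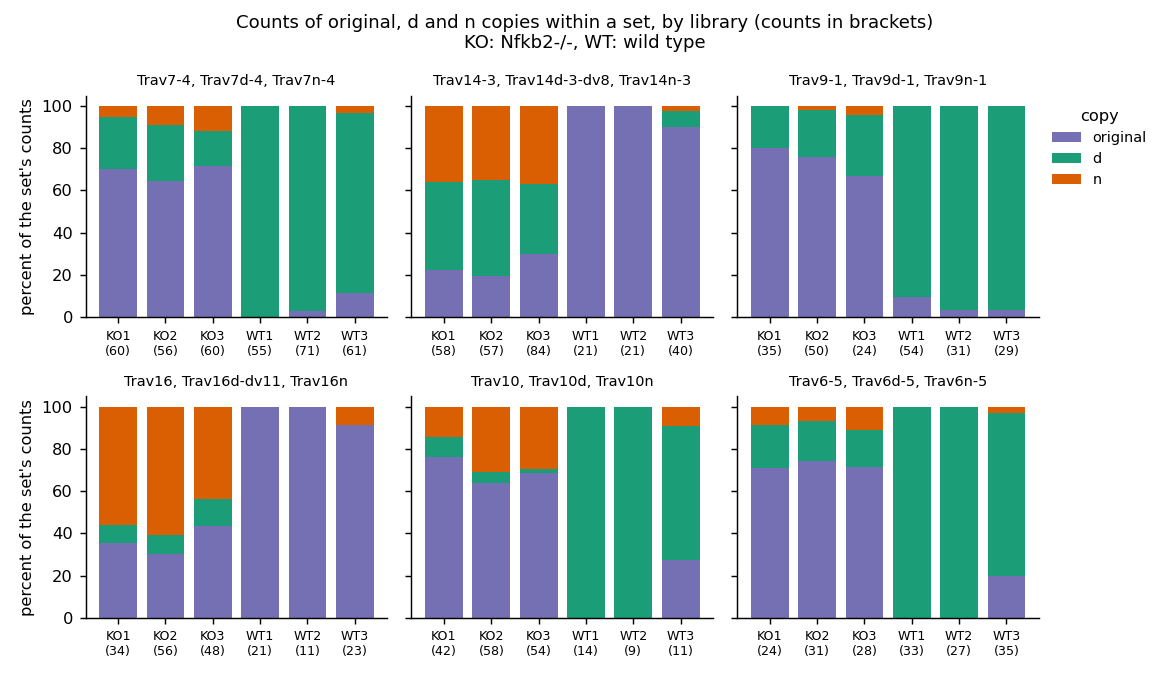
Percent of a set's counts on its original, d and n copy in each library, for the 6 sets with the most counts, with the number of counts in brackets and the 3 Nfkb2-/- libraries (KO) left of the 3 wild-type libraries (WT). In the Trav7-4 set Trav7d-4 holds 25.0%, 26.8% and 16.7% in Nfkb2-/- and 100%, 97.2% and 85.3% in wild type.

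How far single copies can be told apart differed along the locus. For each segment, the share of 50-base windows of its annotated exons found in no other Trav segment was computed, since the read length is not stated in the sources used here. The median share was 93.0% for the far original copies, 0.35% for d copies, 0.165% for n copies and 60.0% for the near original copies. Of the 31 sets of original, d and n copies, 17 had identical variable exons on the d and n copy. The 39 segments with no window of their own held 84 counts in all, and 25 of the 35 segments without any count were among them. Of the 66 segments with 10 or more counts, 64 had windows of their own.

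The shares of the d and n copies as classes are therefore shares of the counts that could be given to them, and a copy at 0 may have been used. Over segments, total counts and the share of own windows had a Spearman rho of 0.556, a description over 128 segments that share libraries and sequence. Among the segments that rose, the share of own windows ran from 29.2% for Trav7-3 to 95.1% for Trav14-1. Among those that fell it was 100% for Trav5-1, 91.7% for Trav7-1, 56.1% for Trav6d-5, 31.9% for Trav9d-1 and 21.9% for Trav7d-4. The classes were also limited to segments with at least 50% of windows of their own, an alternative added after the data were seen. The near original copies then still held 49.6 percentage points more of the Trav counts in Nfkb2-/- and the far ones 44.2 percentage points fewer. The difference of all original copies was 5.35 percentage points, against 18.0 over all segments. That of the d copies was -15.5 percentage points, against -29.75, and that of the n copies 10.1, against 11.8.

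**Figure D5:**
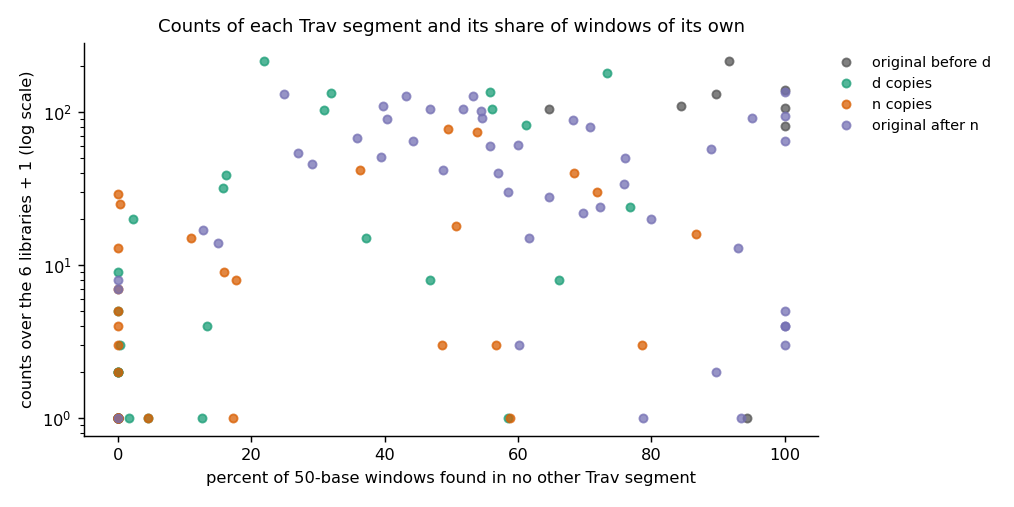
Counts of each Trav segment over the 6 libraries plus 1 (log scale) against the percent of its 50-base windows found in no other Trav segment, coloured by position. The 39 segments at 0% hold 84 counts in all, and 64 of the 66 segments with 10 or more counts lie above 0%.

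Among other genes of the receptor, Trac, the constant part of every alpha chain, was at 334, 288 and 346 CPM in Nfkb2-/- and 192, 290 and 355 CPM in wild type (log2 fold change 0.21, SE 0.221, adjusted p = 0.758), and the genotypes overlapped. Per 100 Trac counts there were 21.3, 23.5 and 21.1 Trav counts in Nfkb2-/- and 17.9, 16.6 and 18.3 in wild type, which did not overlap (exact permutation p = 0.1, the smallest possible). Of 10 genes of the receptor complex, 9 were tested and 0 called by edgeR (1 at an unadjusted p under 0.05), with a median log2 fold change of 0.14, against -0.04 over all genes tested. With 1.01% of all genes called higher and 0.405% lower, a count of 0 in a list of this size, or in those that follow, is no result about its members.

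Of 15 genes of V(D)J recombination, 12 were tested and 0 called by edgeR (1 at an unadjusted p under 0.05), with a median log2 fold change of -0.20. Rag1, which cuts the segments' ends, had 0, 0 and 1 counts in Nfkb2-/- and 0, 1 and 0 in wild type. Dntt, which adds bases at the joints, had 8, 9 and 5 counts in Nfkb2-/- and 21, 23 and 7 in wild type and did not pass the filter. Of the variable segments of the beta chain (Trbv), 19 of 35 were tested and 0 called by edgeR (3 at an unadjusted p under 0.05), with a median log2 fold change of 0.11 and a summed level of 279, 268 and 297 CPM in Nfkb2-/- and 171, 259 and 335 CPM in wild type. Of the joining segments of the alpha chain (Traj), 6 of 60 were tested and 0 called by edgeR (1 at an unadjusted p under 0.05). Whether Trav segments differed from these lists was not tested.

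Markers of other T cells and of myeloid cells, apart from Slamf6, were low in all libraries. The CD8 T cell markers Cd8a and Cd8b1 summed to 11.2, 10.4 and 13.7 CPM in Nfkb2-/- and 13.3, 22.7 and 19.7 CPM in wild type, and the 6 gamma-delta T cell markers to 4.97, 5.49 and 7.41 CPM in Nfkb2-/- and 5.34, 5.46 and 5.96 CPM in wild type. The 4 NKT markers summed to 120, 128 and 125 CPM in Nfkb2-/- and 91.1, 148 and 135 CPM in wild type, nearly all of it Slamf6, a receptor that other T cells also carry. The 5 myeloid markers summed to 9.76, 8.94 and 22.4 CPM in Nfkb2-/- and 11.6, 31.5 and 10.3 CPM in wild type. The sums of these 4 lists overlapped between genotypes.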

How the data were processed

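Messenger RNA was measured in 6 libraries of sorted splenic Tregs, 3 Nfkb2-/- and 3 wild type, and per the labels' protocols the kit did not keep strand. The authors deposited raw counts per gene, as whole numbers. Per the submitters' processing notes, the tools were HISAT2, HTSeq, DESeq2 and FastQC and the build GRCm38, with no versions, and the counting mode, the read length and the treatment of reads that match several genes are not stated in the sources used here. Symbols, positions and transcript sequences came from GENCODE M21 (GRCm38), in which 55394 of the 55573 listed genes were found and 179 were not. The members and lists were chosen with earlier results of these data known.

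The whole table was fitted with edgeR 4.0.16 (R 4.3.3) by its robust quasi-likelihood method, with genotype as the sole term, after filterByExpr and TMM scaling (factors 0.954 to 1.08). Adjustment by Benjamini-Hochberg ran over the 13347 genes tested, calls were made at 0.05, and the common coefficient of biological variation was 0.228. A second fit of 13324 rows had the Trav rows replaced by subfamily sums. Class sums, shares and the inverse Simpson index were compared with two-sided exact permutation tests over libraries (scipy 1.17.1). P-values measure the spread between these samples. Where a genotype had 0 counts in all, 3 counts stood in for it as a floor; where it had 1 to 3, the ratio is given with its exact 95% interval. Both cover counting error only. Windows of 50 bases were compared between the annotated exons of Trav segments. The code was tested on simulated data, and figures were drawn with matplotlib 3.10.9.

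The genes named are all called segments up to 15 in each direction, the 8 subfamilies with the largest mean share of Trav counts and all called subfamilies, Trav1, the Trav11 copies, Trac, Rag1, Dntt and called members of the receptor complex and V(D)J lists. Other genes were named after their values were seen. Both genotypes have replicates numbered alike in the labels, with no word on what the number stands for. Deviations from the genotype's mean had r = 0.364, 0.267 and 0.111 for equal numbers, each above 0.1, which met the rule for pairing, although Nfkb2-/- replicate 3 had a higher r with wild-type replicate 2 (0.251). The main fit has no block, and a fit with the number as a block was an alternative. Other alternatives were RLE, upper-quartile, total-count and summed-Trav scaling, DESeq2 1.42.0, limma-voom (limma 3.58.1), a minimum of 1 CPM in 3 libraries or no filter at all, sums without pseudogenes, without the segment with the most counts or over original copies alone, and leaving out each library. Splitting the original copies by position and keeping only segments with at least 50% of windows of their own were added after seeing the data.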

Additional observations from a re-analysis of the deposited data

How the results depend on the processing

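The number of segments called higher, 14, was 28 with no count filter, 21 with DESeq2, 19 with limma-voom and 11 with a minimum of 1 CPM in 3 libraries. It was 8 with the replicate block and from 0 to 24 without single libraries. When any Nfkb2-/- library was left out it was 0, without wild-type replicate 2 it was 1, and without wild-type replicate 1 it was 24. The number called lower, 5, was 10 with no count filter, 11 with DESeq2, 11 with library sizes taken as summed Trav counts and from 0 to 13 without single libraries. The number of subfamilies called higher, 3, was 6 with no count filter, 7 with DESeq2, 1 with library sizes taken as summed Trav counts and from 0 to 7 without single libraries, and the number called lower, 0, was 1 with DESeq2 and from 0 to 4 without single libraries. With no filter 93 segments were tested instead of 40, and the cause of the other shifts was not tested. The 14 and the 5 called segments kept their sign in each alternative in which they were tested, as did the 3 subfamilies. Nearly all of the 14, and subfamily Trav12, had few or no wild-type counts. Their sign could hardly change, so nothing is read from its being kept. With the replicate block, 3 subfamilies were called higher, 2 of them the same, with Trav9 lost. Of the class sums, shares and effective number, each kept its direction in each alternative that gave a value: the n copies differed by 3.003 (without wild-type replicate 1) to 4.88 and the near original copies by 1.98 to 2.77 on the log2 scale, and the effective number by 13.6 to 24.6. The smallest possible p was 0.2 without a library and 0.25 with the replicate block. Limited to segments with at least 50% of windows of their own, the sums of all segments and of all original copies overlapped between genotypes (exact permutation p = 0.2 each), and no log2 difference could be had for the n copies, which were at 0 in a wild-type library. With 608 to 960 Trav counts per library, 88 of 128 segments were too sparse to be tested.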
